A study of Homo sapiens with 6 samples.

Results

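SIX2, SIX4, SIX5, EYA1, EYA2, EYA3, EYA4 and DACH1 encode transcription factors and cofactors of the SIX-family, EYA and DACH groups, and they were chosen by name rather than by a measured value. Chromatin openness at these 8 genes, of 20033 protein-coding genes annotated, was read from peaks of ATAC-seq, an assay in which the Tn5 transposase inserts sequencing adapters into accessible DNA. Overlapping peaks of 6 libraries were merged into 105569 open regions, and 88 of these had their top summit, the highest point of their strongest peak, in the body of a member gene or within 50 kb of it. SIX-family proteins are homeodomain factors that bind DNA, EYA proteins are coactivators with a phosphatase domain that SIX-family proteins bring to the DNA, and DACH proteins bind the same complexes as corepressors. Downstream of PAX factors the 3 families form a regulatory network of the eye, ear, kidney and skeletal muscle. In muscle precursors SIX-family proteins bind MEF3 sites in genes of the myogenic programme, whereas MyoD, the factor deleted here, binds E boxes.

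The cells were RH30, a fusion-positive rhabdomyosarcoma line, and rhabdomyosarcoma is a tumour with features of skeletal muscle. All 6 cultures received Cas9 by viral transduction, 3 of them with non-targeting sgRNA scramble guides (vector) and 3 with sgRNAs against MyoD (MyoD-deleted). The labels name each library a biological replicate and give no drug treatment or time. The study's text names cells with an NF-κB super repressor (RH30-SR) in places and RH30 in others, and the labels give RH30. Whether the MyoD-deleted cells of these libraries were a pool or 1 clone was not given in the sources used here, so p-values measure the spread between these libraries.

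The peak lists held between 63140 and 74121 peaks per vector library and between 73745 and 80608 per MyoD-deleted library. They hold no read totals, so depth is unknown and no counting interval can be given. The smallest local background of a library, used here in place of depth, was 3.41, 2.22 and 2.74 reads in vector libraries 1 to 3 and 2.27, 2.28 and 2.35 in MyoD-deleted libraries 1 to 3. The 5′ ends of MYOD1, MYOG, DES and CHRNA1, which mark the skeletal myogenic lineage, were open in 3 of 3 libraries of both groups, and that of MYF6 was open in 0 of 6. The 5′ ends of PTPRC and CD3E (leukocytes), EPCAM and CDH1 (epithelium) and PECAM1 and CDH5 (endothelium) were open in 0 of 6 libraries. A peak over MYOD1 checks neither the edit nor the protein. Values of the same region ranked alike in libraries of a group (Spearman's rho 0.901 to 0.936 across 47885 regions, which are not independent) and somewhat less so between groups (0.797 to 0.857).

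At each region the deposited fold enrichment, the reads piled up at the summit over the local background, was ranked within its library and given as a percentile among the regions called in all 6 libraries. A second measure, the summit height, was the recovered pileup over the smallest background of the library, on a log2 scale and centred so that 0 is the median region. The percentile uses the local background as well as the pileup, and the height uses the pileup alone within a library. Between groups both were tested with limma on all 47885 regions called in every library, with Benjamini-Hochberg adjustment over them. Regions present in 3 of 3 MyoD-deleted and 0 of 3 vector libraries are termed gained, and those with the opposite pattern lost.

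The sequences of 5 member regions that passed a test on chromosomes 2, 6 and 20 are shown because they hold the letters to which the values below refer. Each is the 201 bp centred on the top summit, from GRCh38, plus strand. For EYA4 intron 3, first and second order only the sequences shown, at 187.2 and 190.9 kb from the 5′ end, and other regions lie in that intron. Capitals mark E boxes (CAGCTG or CAGGTG, the latter read CACCTG on the other strand), AP-1 sites (TGACTCA or TGAGTCA) and TCAGGTT, the core of the MEF3 site, which reads AACCTGA on the other strand.
SIX2 upstream, chr2:45024986-45025186: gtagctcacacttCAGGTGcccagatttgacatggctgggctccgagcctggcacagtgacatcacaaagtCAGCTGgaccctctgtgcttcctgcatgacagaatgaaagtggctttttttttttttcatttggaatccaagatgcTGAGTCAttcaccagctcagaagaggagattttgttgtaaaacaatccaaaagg
EYA2 intron 1, chr20:46979158-46979358: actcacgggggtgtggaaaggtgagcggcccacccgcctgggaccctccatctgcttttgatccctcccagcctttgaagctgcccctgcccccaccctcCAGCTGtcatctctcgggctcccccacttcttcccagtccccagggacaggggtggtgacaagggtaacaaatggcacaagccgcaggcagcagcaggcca
EYA4 upstream, chr6:133208495-133208695: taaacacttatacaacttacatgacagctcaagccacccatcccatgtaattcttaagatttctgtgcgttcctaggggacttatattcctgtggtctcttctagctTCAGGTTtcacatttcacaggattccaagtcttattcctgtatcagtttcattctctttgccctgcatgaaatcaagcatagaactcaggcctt
EYA4 intron 3, first, chr6:133428410-133428610: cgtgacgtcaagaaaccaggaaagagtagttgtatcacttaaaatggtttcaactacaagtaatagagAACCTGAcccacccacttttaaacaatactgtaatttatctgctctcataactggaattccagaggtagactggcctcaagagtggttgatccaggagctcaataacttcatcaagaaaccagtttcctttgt
EYA4 intron 3, second, chr6:133432186-133432386: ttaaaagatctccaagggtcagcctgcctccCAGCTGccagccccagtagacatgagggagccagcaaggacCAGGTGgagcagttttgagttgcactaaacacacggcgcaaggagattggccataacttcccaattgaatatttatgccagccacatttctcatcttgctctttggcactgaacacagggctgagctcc
The region upstream of SIX2 held 1 CAGCTG, 1 CAGGTG and 1 TGAGTCA. In intron 1 of EYA2 a CAGCTG lay at 0 to 5 bp from the summit. The second region of EYA4 intron 3 held 1 CAGCTG and 1 CAGGTG. The upstream region and the first of intron 3 of EYA4 held TCAGGTT at 7 and 26 bp from the summit and no E box. Motif matches describe letters in these windows and do not show that a factor was bound.

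Of the 88 member regions, vector libraries 1, 2 and 3 had 67, 57 and 62, and MyoD-deleted libraries 1, 2 and 3 had 68, 73 and 76. The groups did not overlap, and all 105569 regions showed 73775, 62441 and 64390 against 72896, 79198 and 79389, which did. When each library was limited to its 63140 strongest peaks, the member regions called were 58, 57 and 61 against 61, 65 and 68, so that the highest vector and the lowest MyoD-deleted library were equal. In 49 of the 88 regions (55.7%, and 45.4% of all regions) all 6 libraries had a peak. The remaining regions included 4 gained ones, against 4.56% of all regions gained, and 0 lost ones, against 1.78%. Another 35 regions were called in only some libraries in other ways. Of these, 22 were called in more MyoD-deleted libraries, 11 in more vector libraries and 2 in as many of each. The same split over all 50985 such regions was not computed. MyoD-deleted libraries 2 and 3 had more peaks than every vector library.

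Among the 8 genes, EYA3 differed most in calls. Its 16 regions were called 8, 4 and 6 times in vector libraries and 10, 14 and 12 times in MyoD-deleted libraries, and 4, 4 and 5 against 7, 12 and 9 times with equal numbers of peaks. The groups did not overlap in either EYA3 count. The share of all genes whose counts were apart in this way was not computed. At 9 of the 16 EYA3 regions another protein-coding gene had the nearer 5′ end. Over all regions with equal numbers of peaks, the calls were 62913, 62452 and 62878 in vector and 62557, 62427 and 62397 in MyoD-deleted libraries, which overlapped. Of the 16 EYA3 regions, 12 were neither gained, lost nor called in all 6 libraries. EYA2, with 15 regions, had 12, 9 and 11 in vector and 13, 14 and 15 in MyoD-deleted libraries, also apart, and 10, 9 and 11 against 12, 11 and 13 with equal numbers of peaks, where they met at 11. EYA4, with 19 regions, had 12, 11 and 12 against 13, 14 and 15, and the difference was gone with equal numbers of peaks (11, 11 and 12 against 10, 11 and 12). SIX2 had 10 regions, SIX4 had 7, SIX5 had 12, EYA1 had 7 and DACH1 had 2, and at these genes the counts of the groups overlapped.

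**Figure D1:**
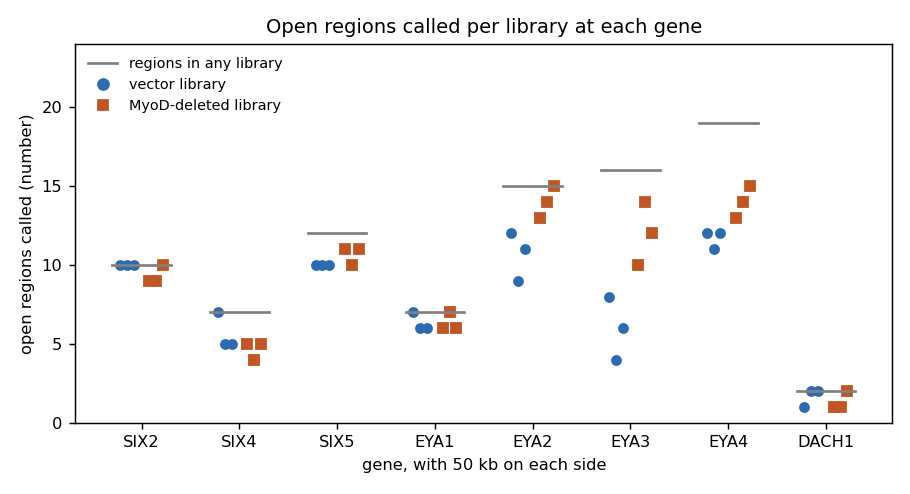
Number of open regions called in each library (points) at each member gene with 50 kb on each side, with a grey line at the number of regions found in any library. For EYA3, vector libraries had 4 to 8 regions and MyoD-deleted libraries 10 to 14, whereas SIX2 had 9 or 10 in every library.

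Regions were unevenly spread over the genes. SIX2 and SIX5, short genes of 4.27 and 4.47 kb, had 9.59 and 11.5 regions per 100 kb searched, whereas DACH1, over 429 kb long, had 0.378 and EYA1 had 1.42. Relative to the canonical transcript of the member, 26 of the 88 regions lay upstream, 28 downstream, 30 in introns and 4 in exons. Of the upstream ones 3, 1 each at EYA1, EYA2 and EYA4, were still inside the gene body, which also covers longer transcripts. Introns held 11 of 15 regions at EYA2 and 11 of 19 at EYA4, and none at SIX2 or SIX5. The member was the gene with the nearest 5′ end for 52 regions, among them 18 of 19 at EYA4, all 7 at EYA1 and 3 of 12 at SIX5. At the other 36 regions another protein-coding gene was nearer, and the gene a region acts on cannot be told from these lists.

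By rank, 1 member region was higher in MyoD-deleted cells, against 4.12% of all regions tested, and 4 were lower, against 4.67%, of the 49 called in every library. By centred height 5 were higher, against 11.4% of all regions, and 9 were lower, against 12.8%. Without the centring, which moves the median change of all regions from 0.04 to 0.23 on the log2 scale, 7 were higher (24.7% of all regions) and 6 lower (8.03%). The members' median change was -1.55 percentile points by rank (-0.08 over all regions) and -0.08 by centred height (0.04 over all regions). By height without the centring it was 0.11 (0.23 over all regions), so its sign turned. Between the groups, ranks did not overlap at 3 regions that were higher and 13 that were lower, where the background is 14.1% and 15.9%. Centred heights did not at 7 and 18, where it is 19.8% and 18.1%. Heights without the centring did not at 10 that were higher and 8 that were lower, against 17009 and 4668 of all 47885. At the summits, MyoD-deleted cells had a lower local background at 43 of the 49 regions and at 39849 of all 47885, and its part in the ranks was not tested.

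**Figure D2:**
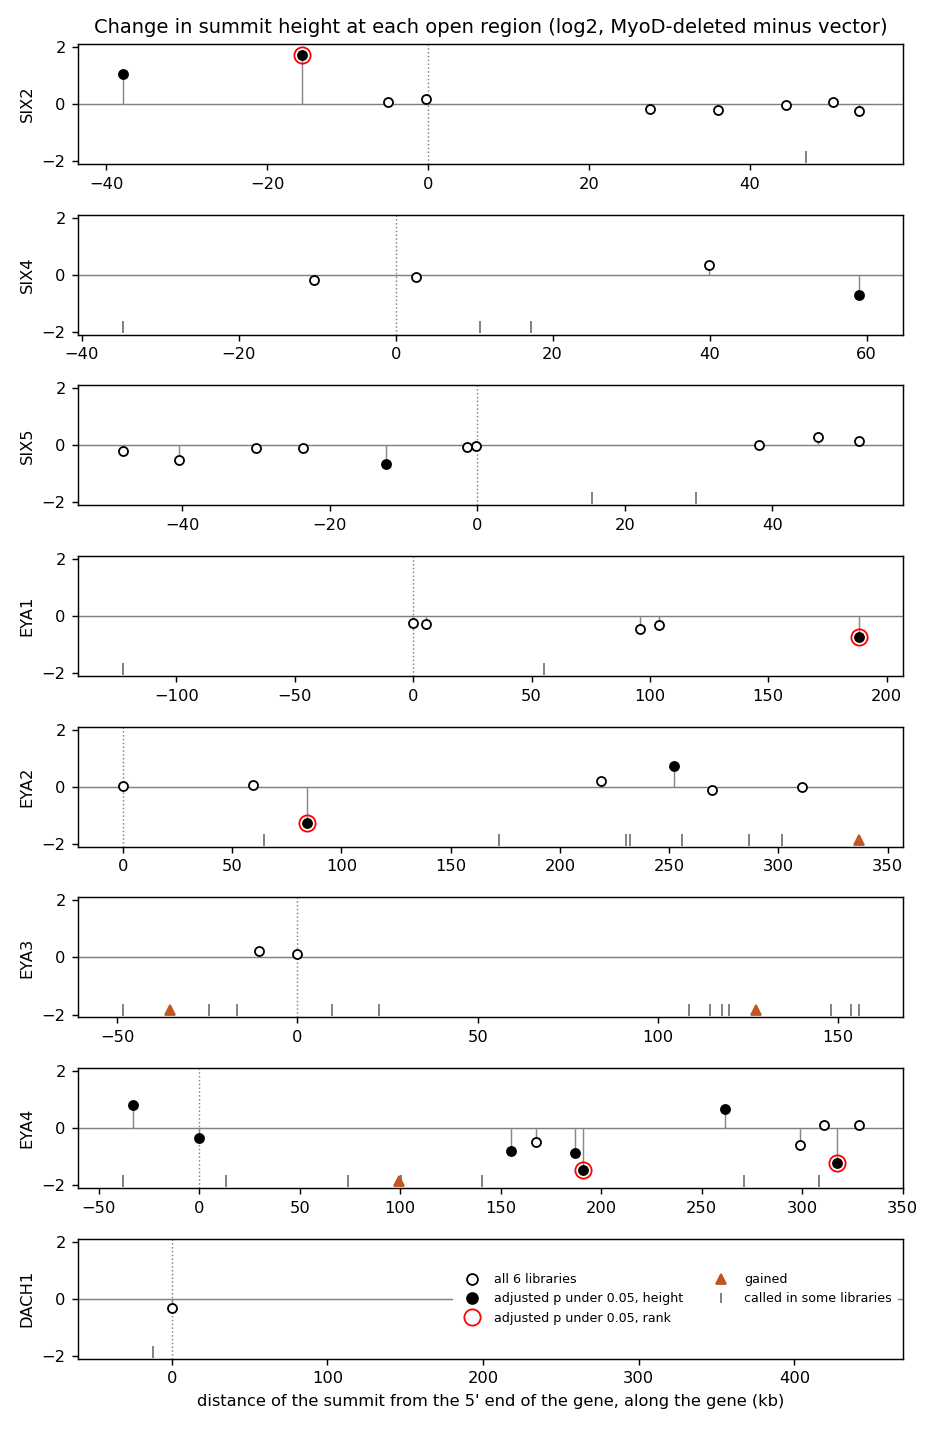
Change in centred summit height (log2, MyoD-deleted minus vector) at each region called in all 6 libraries, by distance of the summit from the gene's 5′ end along the gene in kb. Filled points passed the test by height and red rings the test by rank, triangles are gained regions and ticks are regions called in some libraries. The highest point is SIX2 at 1.72 and the lowest is EYA4 at -1.47.

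SIX2, a factor that keeps nephron progenitors of the kidney undifferentiated, had the only member region that was higher by rank. It lay 15.6 kb upstream of the 5′ end (chr2:45024638-45025607), outside any member gene. Fold enrichment there was 8.16, 4.96 and 6.59 in vector libraries 1 to 3 and 9.93, 15.5 and 12.6 in MyoD-deleted libraries 1 to 3. All 3 MyoD-deleted libraries were above every vector library. Its rank was at percentile 28.5 ± 15.8 in vector and 73.2 ± 15.2 in MyoD-deleted cells (SD, n = 3; limma adjusted p 0.0261), and its height rose by 1.72 on the log2 scale (SE 0.27, limma adjusted p 0.000165). The rank call was lost without vector replicate 2 (limma adjusted p 0.0872), vector replicate 3 (0.0697), MyoD-deleted replicate 2 (0.0912) or MyoD-deleted replicate 3 (0.0544).

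A second SIX2 region 38.0 kb upstream (chr2:45045854-45048086, 2233 bp wide) was higher by height only, from -1.76 ± 0.31 in vector to -0.73 ± 0.06 in MyoD-deleted libraries (SD, n = 3), a rise of 1.03 (SE 0.22, limma adjusted p 0.0018). Its local background also stood at 5.29 reads in MyoD-deleted and 3.34 in vector cells, and its rank did not pass (limma adjusted p 0.343). At the other SIX2 regions in every library, the one at the 5′ end included, neither rank nor centred height passed.

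SIX4, a SIX-family factor of muscle precursors, had 4 regions in every library and none that passed by rank. The one that passed by height lay 59.1 kb along the gene direction from its 5′ end and 44247 bp past its 3′ end (chr14:60664686-60665827), where another gene's 5′ end is nearer. Centred height there was -0.23, 0.10 and -0.21 in vector and -0.65, -1.40 and -0.44 in MyoD-deleted libraries 1 to 3. All vector libraries were higher, with a fall by 0.72 on the log2 scale (SE 0.22, limma adjusted p 0.0254) that was not called without the centring (limma adjusted p 0.0595). Its rank moved from percentile 58.5 ± 7.7 to 46.3 ± 13.5 (SD, n = 3), with overlapping groups. The SIX4 region of highest mean rank covers the 5′ end of the neighbouring gene MNAT1, an assembly factor of the CDK-activating kinase, and was at percentile 88.4 ± 4.8 and 79.7 ± 4.7 (limma adjusted p 0.189).

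SIX5 lies next to DMPK, the kinase gene of myotonic dystrophy, and its 1 region that passed by height lay in DMPK, 0.829 kb from the DMPK 5′ end and 12409 bp upstream of SIX5 (chr19:45781235-45783543). Centred height was 1.47, 1.62 and 1.61 in vector and 1.07, 0.75 and 0.89 in MyoD-deleted libraries 1 to 3. The groups were apart, and height fell by 0.66 (SE 0.12, limma adjusted p 0.000494). By rank the same region went from percentile 32.8 ± 5.2 to 15.0 ± 3.2 (SD, n = 3) without passing (limma adjusted p 0.071). Its window held 1 CAGCTG, 2 CAGGTG and 1 TGAGTCA. The other 9 SIX5 regions in every library passed neither test, and the one of highest mean rank, at the 5′ end of FBXO46, was at percentile 98.0 ± 1.0 and 98.5 ± 0.6.

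EYA2, a coactivator expressed in limb muscle precursors, had 1 region lower by rank, in intron 1 and 84.4 kb from the 5′ end (chr20:46978743-46979798). Fold enrichment there was 11.9, 7.75 and 6.69 in vector libraries 1 to 3 and 4.29, 3.66 and 5.08 in MyoD-deleted libraries 1 to 3. Every MyoD-deleted library was below every vector library, and vector replicate 1 stood above the other two. Its rank fell from percentile 49.4 ± 25.4 to 5.71 ± 3.12 (SD, n = 3; limma adjusted p 0.0153) and its height by 1.28 (SE 0.28, limma adjusted p 0.00241). Without MyoD-deleted replicate 2 the rank call was lost (limma adjusted p 0.0618).

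In the opposite direction, a region in intron 10 of EYA2 (chr20:47146480-47147204) was higher by height. Its values were -0.32, -1.11 and -1.09 in vector and -0.16, -0.07 and -0.07 in MyoD-deleted libraries, a rise of 0.74 (SE 0.21, limma adjusted p 0.0144), whereas its ranks overlapped (limma adjusted p 0.435). EYA2 also had a gained region 42949 bp past its 3′ end (chr20:47231670-47232364), with pileups of 17, 26 and 21 reads in MyoD-deleted libraries 1 to 3. The summit of this gained region lay in another gene, ZMYND8. For it and for the intron 10 region, the 5′ end of ZMYND8 was nearer than that of EYA2. The EYA2 region of highest mean rank, in intron 9 and with a CAGCTG at its summit, was at percentile 80.3 ± 4.3 and 84.7 ± 4.3 (limma adjusted p 0.526).

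EYA3, the most widely expressed EYA gene, had only 2 of its 16 regions in every library, neither of which passed a test, and 2 of the 4 gained regions. One gained region lay 35.3 kb upstream (chr1:28123572-28124041) with pileups of 12, 22 and 20 reads in MyoD-deleted libraries 1 to 3. The other lay 9048 bp past the 3′ end (chr1:27961014-27962136), 1.32 kb from the 5′ end of XKR8, a phospholipid scramblase gene, with a pileup of 15 reads in each. These are low peaks, with a −log10 q of 4.15 to 13.0 and of 4.2 to 5.17. Another 8 EYA3 regions were called in more MyoD-deleted than vector libraries, 2 in more vector libraries and 2 in as many of each. The share over all regions was not computed. One of the 8, in intron 1, had fold enrichment of 3.1 in 1 vector library and 7.04, 10.7 and 7.77 in MyoD-deleted libraries. The number of peaks in 2 of the 3 MyoD-deleted libraries was above that of every vector library, and EYA3 calls with equal numbers of peaks are those given above.

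EYA4, a coactivator known for a role in hearing and the heart, had the most regions and the most that passed. Of 11 in every library, 2 were lower by rank, against 4.67% of all regions. By height 5 were lower and 2 higher, against 12.8% and 11.4% of all regions. The region 26711 bp past its 3′ end (chr6:133558661-133559542) had fold enrichment of 11.6, 9.61 and 8.42 in vector libraries 1 to 3 and 4.59, 6.41 and 5.68 in MyoD-deleted libraries 1 to 3. All vector libraries were above all MyoD-deleted libraries. Its rank fell from percentile 60.5 ± 14.4 to 13.3 ± 5.7 (SD, n = 3; limma adjusted p 0.00845) and its height by 1.21 (SE 0.24, limma adjusted p 0.00118). It passed by rank with any 1 library left out, at limma adjusted p between 0.0131 and 0.0311.

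Within intron 3 of EYA4, 4 regions were called in every library, and 3 of them passed as lower by height (12.8% of all regions did). The fourth had heights of -1.63 ± 0.28 and -2.12 ± 0.07 (SD, n = 3; limma adjusted p 0.135). The one 190.9 kb from the 5′ end (chr6:133431866-133432879) had centred heights of 0.82, 0.87 and 0.63 in vector and -0.47, -1.0 and -0.63 in MyoD-deleted libraries 1 to 3. This fall by 1.47 (SE 0.17, limma adjusted p 8.68e-06) was the lowest value of the 49 member regions. Its rank fell from percentile 32.4 ± 4.8 to 8.16 ± 2.89 (SD, n = 3; limma adjusted p 0.0167), a call lost without vector replicate 2 (0.0532) or MyoD-deleted replicate 2 (0.0686).

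Its neighbour in intron 3, 187.2 kb from the 5′ end (chr6:133427955-133428908), fell in height from 0.82 ± 0.06 to -0.07 ± 0.16 (SD, n = 3), a change of -0.88 (SE 0.14, limma adjusted p 0.000185). Its rank stayed at percentile 35.5 ± 3.1 and 32.2 ± 11.5 with overlapping groups, and its local background went from 15.4 reads in vector to 7.13 in MyoD-deleted cells. At 155.1 kb (chr6:133395946-133397256) the third of them fell by 0.80 in height (SE 0.21, limma adjusted p 0.0085), with 1 CAGCTG in its window. Its ranks were apart, at percentile 66.3 ± 16.3 and 36.7 ± 7.2, and did not pass (limma adjusted p 0.0649).

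Both EYA4 regions that rose by height lay outside intron 3. The first, 32.8 kb upstream (chr6:133208006-133209934), rose from -1.24 ± 0.35 to -0.42 ± 0.15 (SD, n = 3; change 0.82, SE 0.21, limma adjusted p 0.00782). Its rank did not pass (limma adjusted p 0.203), but did without vector replicate 1, where fold enrichment was 8.57 against 5.2 and 5.53 in the other vector libraries (0.0223). The second, in intron 13 (chr6:133502502-133503652), rose by 0.67 in height (SE 0.15, limma adjusted p 0.00362), and its rank was at percentile 51.9 ± 7.8 and 72.3 ± 1.4 (limma adjusted p 0.0543). A gained region in intron 2 (chr6:133340283-133341030) had pileups of 21, 27 and 18 reads in MyoD-deleted libraries 1 to 3, and held a TGAGTCA and no E box.

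**Figure D3:**
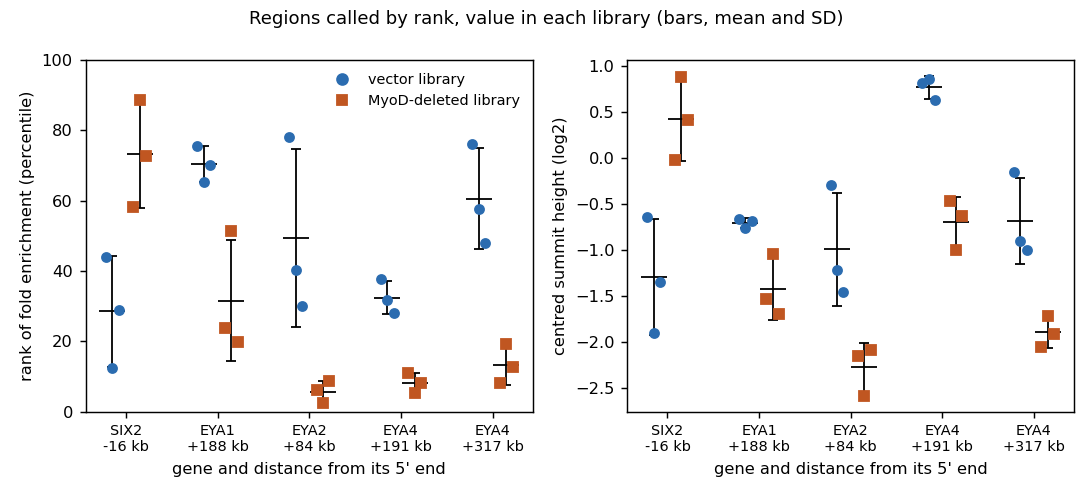
Rank of fold enrichment (percentile, left) and centred summit height (log2, right) in each library at the 5 member regions that passed by rank, where bars are the mean and SD of 3 libraries. The SIX2 region rose from percentile 28.5 to 73.2, and the EYA1, EYA2 and both EYA4 regions fell, the EYA4 region downstream of the gene from 60.5 to 13.3.

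EYA1, a coactivator needed for ear and kidney and present in muscle precursors, had 5 regions in every library, and all of them were lower in MyoD-deleted cells by rank and by height. Of all 47885 regions tested, 24200 were lower by rank and 21662 by height. The groups did not overlap at 4 of the 5 EYA1 regions by rank, where 15.9% of all regions were apart and lower. By rank 1 passed the test, against 4.67% of all regions lower. It lay 23742 bp past the 3′ end and 188.4 kb from the 5′ end (chr8:71173331-71174287). Fold enrichment there was 11.6, 10.5 and 10.9 in vector libraries 1 to 3 and 6.43, 10.1 and 6.58 in MyoD-deleted libraries 1 to 3. MyoD-deleted replicate 2 lay close to the vector libraries. Its rank fell from percentile 70.4 ± 5.1 to 31.6 ± 17.2 (SD, n = 3; limma adjusted p 0.023) and its height by 0.72 (SE 0.21, limma adjusted p 0.0192), and the height did not pass without the centring (0.0702). The rank call was lost without vector replicate 2 (limma adjusted p 0.0571), vector replicate 3 (0.0677), MyoD-deleted replicate 1 (0.0735) or MyoD-deleted replicate 3 (0.0602). A region inside the annotated EYA1 gene but 122.8 kb upstream of the 5′ end of its canonical transcript, with fold enrichment of 12.7, 12.5 and 11.7 in vector libraries, had 5.51 and 7.02 in MyoD-deleted libraries 1 and 2 and no peak in library 3, so it entered no test.

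DACH1, the corepressor of the set, had 2 regions in a window of 529.2 kb, 1 at its 5′ end and 1 at 12.3 kb upstream that 3 of 6 libraries called. Neither had its summit inside the gene. The region at the 5′ end (chr13:71866305-71867773) was at percentile 49.1 ± 13.0 in vector and 52.6 ± 6.7 in MyoD-deleted libraries (SD, n = 3; limma adjusted p 0.824). Its height went the other way, from -0.40 ± 0.27 to -0.71 ± 0.08, with groups that did not overlap and a change that did not pass (limma adjusted p 0.259).

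At the 5′ ends, where promoters lie, all 8 members had a region in every library and none passed by rank. EYA4 alone passed by centred height, at 2.12, 2.30 and 2.21 in vector and 1.94, 1.68 and 1.95 in MyoD-deleted libraries, a fall by 0.35 (SE 0.10, limma adjusted p 0.0201) that was not called without the centring (0.35). SIX2 had the highest of them, 2.66 ± 0.11 in vector and 2.83 ± 0.03 in MyoD-deleted libraries (limma adjusted p 0.175), which passed only without the centring (change 0.37, limma adjusted p 0.0244). EYA4, SIX5 and EYA3 followed at 2.21 ± 0.09, 2.08 ± 0.02 and 2.06 ± 0.07 in vector libraries, and EYA3 overlapped both others. EYA1 at 1.59 ± 0.00132 and SIX4 at 1.47 ± 0.26 also overlapped each other, with the SIX4 summit in intron 1 at 2.56 kb from its 5′ end. DACH1 and EYA2 were below the median region, and EYA2 at -1.77 ± 0.43 was the lowest.

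**Figure D4:**
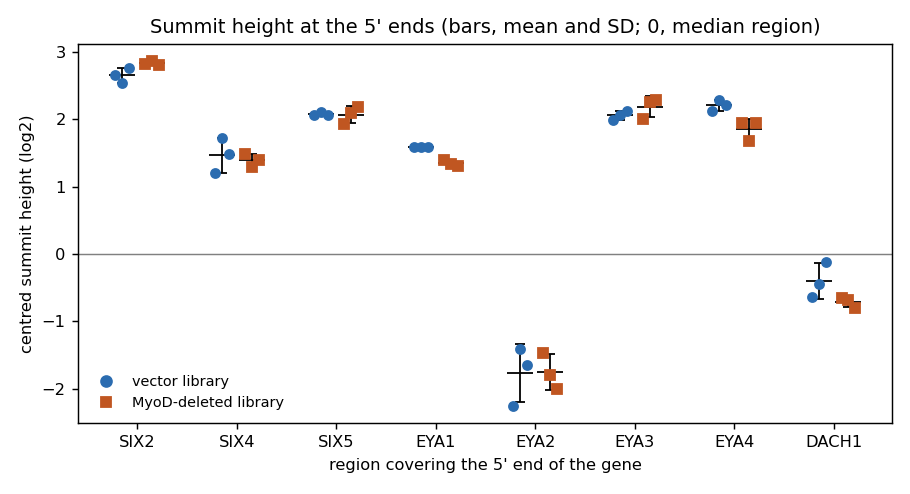
Centred summit height (log2, with 0 at the median region called in all 6 libraries) of the region at the 5′ end of each member in each library, where bars are the mean and SD of 3 libraries. SIX2 is highest at 2.66 in vector cells, and EYA2 at -1.77 and DACH1 at -0.40 lie below the median region.

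Read gene by gene, the median percentile over the regions of a member in every library was taken in each library, and an exact permutation test (two-sided) cannot give a p below 0.1 with 20 assignments of 3 against 3 libraries. EYA1 alone had groups apart, at 55.2, 65.3 and 70.2 in vector and 37.1, 51.3 and 38.9 in MyoD-deleted libraries. Its exact permutation p was 0.1 (0.8 adjusted over the 8 genes), with a difference of -21.1 percentile points. For the other genes the exact permutation p lay between 0.4 and 1.0. Median centred height gave an exact permutation p of 0.1 (0.16 adjusted) for SIX4, SIX5, EYA1, EYA4 and DACH1, with differences of -0.42, -0.36, -0.32, -0.33 and -0.31 (MyoD-deleted minus vector). Without the centring the same medians overlapped between groups for these genes, at an exact permutation p of 0.2 to 0.6. Those of SIX2 and EYA3 were then apart, with differences of 0.38 and 0.36 at an exact permutation p of 0.1 each (0.32 adjusted).

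**Figure D5:**
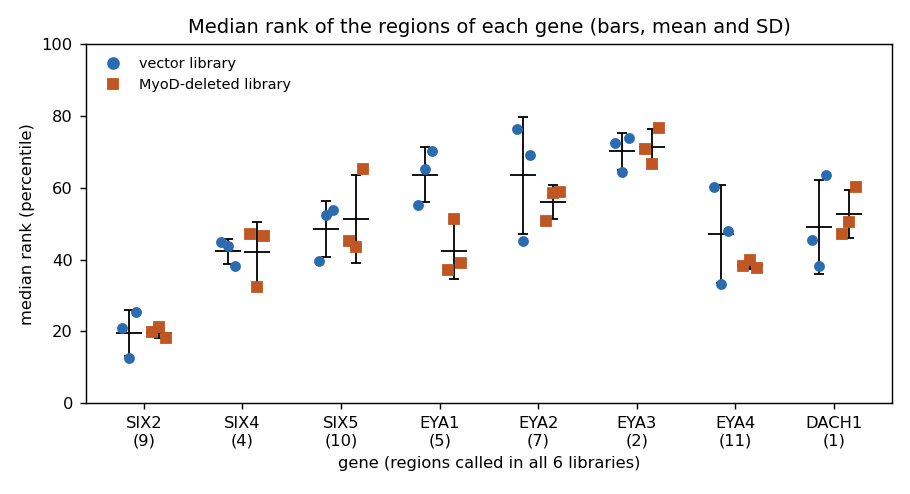
Median percentile of the regions of each member called in all 6 libraries (their number in brackets), in each library, where bars are the mean and SD of 3 libraries. The EYA1 libraries are apart, 55.2 to 70.2 in vector against 37.1 to 51.3 in MyoD-deleted, and those of the other genes overlap.

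Of the 88 member regions, 33 (37.5%) held an E box of the searched kinds, CAGCTG or CAGGTG, within 100 bp of the summit on either strand, and 36.6% of all regions did. No motif matches overlapped each other in a member region. All 4 members lower by rank held one, at EYA1, EYA2 and EYA4, and 73.4% of all regions lower by rank did. Of the members lower by height 6 of 9 held one (72.6% of all such regions), and of those higher by height 1 of 5, at SIX2 (21.9%). The gained members, at EYA2, EYA3 and EYA4, held an E box in 0 of 4 and an AP-1 site in 1 of 4, where all gained regions held them in 19.8% and 27.4%. An AP-1 site (TGACTCA or TGAGTCA) was found in 11 of 88 member regions (12.5%, and 17.9% of all regions) and TCAGGTT in 3 of 88 (3.41%, and 2.49%), 2 of them at EYA4 and 1 at EYA3.

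The partners of the network, PAX3, PAX7, TLE1, TLE2, TLE3, TLE4, TLE5, NCOR1, SIN3A, HDAC3 and SMAD4, are upstream factors, corepressors and their enzymes. They had 119 regions, of which 56 were in every library, 4 were gained and 3 lost, against 4.56% and 1.78% of all regions. By rank 3 were higher and 0 lower, against 4.12% and 4.67% of all regions. By height 8 were higher and 6 lower, against 11.4% and 12.8%. The median change was 1.00 percentile points by rank and 0.10 in height. Without the centring 17 were higher and 3 lower, against 24.7% and 8.03%, with a median change of 0.29 (0.23 over all regions). TLE1, a Groucho corepressor, had the region of largest change among the 3 higher by rank, from percentile 16.5 ± 6.7 to 50.7 ± 9.4 (SD, n = 3; limma adjusted p 0.0185). The second lay near NCOR1, a nuclear receptor corepressor, at 46.7 ± 5.7 and 71.1 ± 3.3 (limma adjusted p 0.0297), and the third was shared by TLE2 and TLE5 at 78.2 ± 1.6 and 91.4 ± 4.1 (limma adjusted p 0.0388). The nearest 5′ ends of the last 2 were those of TTC19 and GNA11. At PAX3, the gene fused to FOXO1 in many such tumours, 7 regions passed no rank test and 2 were lower by height, the first of them by 0.33 (SE 0.09, limma adjusted p 0.0135).

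Genes on which SIX-family proteins are known to act, MYF5, MYF6, MYOD1, MYOG, SALL1, GDNF, CCND1, CCNA1, EZR, SLC12A2, TNNT3, ALDOA and PVALB, had 107 regions, with 64 in every library, 3 gained and 2 lost. By rank 1 was higher and 1 lower, and by height 4 were higher and 24 lower, with a median change of -0.77 percentile points and -0.16 in height. Of all regions 4.12% were higher and 4.67% lower by rank, and 11.4% were higher and 12.8% lower by height. Without the centring the list had 11 higher and 14 lower, against 24.7% and 8.03% of all regions. Its median change was then 0.03, and 0.23 over all regions. Of those lower by centred height 7 lay at MYOG, 6 at TNNT3, the fast troponin T, and 5 at MYOD1, and without the centring 5, 4 and 1 were lower there. A MYOG region upstream of the gene fell by 1.13 in height (SE 0.12, limma adjusted p 4.16e-06). The region with the smallest p in the TNNT3 window (chr11:1979250-1981064) lay 60.4 kb from the TNNT3 5′ end, and that of MRPL23 was nearer. It fell by 1.42 in height (SE 0.13, limma adjusted p 8.42e-07) and was also lower by rank (limma adjusted p 0.0422). SLC12A2, a chloride cotransporter, had the region that was higher by rank, from percentile 52.6 ± 12.2 to 84.1 ± 5.9 (limma adjusted p 0.0186). Members and target genes share these 6 libraries, so their changes are not independent of each other.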

How the data were processed

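ATAC-seq of RH30 cells gave 3 vector and 3 MyoD-deleted libraries, grouped by the labels' guide. The authors aligned read pairs to hg38 with Rsubread, sorted them with Rsamtools, kept proper pairs with GenomicAlignments and called peaks per library with MACS2, with no pooling of replicates. The submitters' notes name bcl2fastq 2.20 and FastQC, and other versions are not given in the sources used here. Whether the exclusion list of problem regions was applied before the lists were written is not stated. The deposited lists give each peak's score (10 times its −log10 q, cut to a whole number), its fold enrichment over the local background, and its −log10 p and −log10 q, none of them normalized between libraries. The authors' own comparison with DESeq2 was not used here. Depth is unknown, since the lists hold no read totals.

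Peaks of the autosomes and X and Y were merged where they overlapped or adjoined, without the 1 mitochondrial peak of each library. Pileups and local backgrounds were recovered from fold enrichment and −log10 p under the caller's Poisson model for 100% of peaks. Ranks (as inverse-normal values) and summit heights were compared with limma 3.58.1 (lmFit, eBayes with a trend) in R 4.3.3, without a block, two-sided, with Benjamini-Hochberg adjustment over 47885 regions and a threshold of 0.05. Other steps used Python 3.11.15, numpy 2.4.6, scipy 1.17.1, pandas 2.3.3 and matplotlib 3.10.9. Genes came from GENCODE version 44 on GRCh38, a 5′ end is that of the canonical transcript, sequences came from the genome of the same build, and positions count from 1. Ranks of 47885 regions were simulated for the comparison between vector and MyoD-deleted libraries, with 200 regions shifted by 1.5 inverse-normal units. The test called 152 of the 200 (76.0%) and 3 unshifted regions. Noise was drawn independently for each library and all shifts had the same size. The share found among smaller shifts, or with noise shared between libraries, was therefore not simulated.

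The members, the partner and target lists and the tests were chosen with earlier results of these data known. Regions named are those at 5′ ends, those past the threshold by rank, those gained, and the one of highest mean rank per gene. Regions past the threshold only by height, the fourth region of EYA4 intron 3, the EYA1 region upstream of the canonical 5′ end and the EYA3 region in intron 1 were named after their values were seen. Alternatives were another measure, stricter or equally many peaks, a minimum cover, other distances to genes, the replicate number as a block, and each library left out. One marker gene is not reported here, and sequences are shown for only some of the regions past a threshold.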

Additional observations from a re-analysis of the deposited data

How the results depend on the processing

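Depth is unknown, so the lists cannot separate a missing peak from one under the caller's threshold, and 3 libraries per group bound the precision. Of 1 higher, 4 lower, 4 gained and 0 lost member regions, the counts moved as follows, and the cause was not tested. Centred height gave 5 higher and 9 lower, height without the centring 7 higher and 6 lower, and ranks of −log10 p 4 higher and 8 lower. Peaks with a −log10 q of at least 5 gave 3 lower and 6 gained. Peaks covering at least 50% of a region gave 0 higher, 1 lower, 5 gained and 2 lost, and equal numbers of peaks 3 lower and 2 lost. Windows of 5 kb gave 0 higher, 2 lower and 1 gained, and windows of 100 kb 3 higher, 6 lower, 7 gained and 1 lost. The nearest 5′ end gave 2 higher, 7 lower, 3 gained and 3 lost. Leaving out 1 library gave 0 to 3 higher, 2 to 5 lower, 4 to 7 gained and 0 to 1 lost.

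Replicate numbers did not pair the libraries: deviations of same-numbered libraries correlated at -0.04, -0.10 and 0.04, and vector replicate 1 correlated best with MyoD-deleted replicate 2 (0.158). The replicate block gave 0 higher regions, since the SIX2 call was lost (limma adjusted p 0.0581), and 5 higher and 9 lower with centred height. Under the block with centred height the gene medians read -0.36 (SIX5), 0.20 (EYA2) and -0.31 (DACH1), and 5′-end or top regions -0.0733 (SIX4), -0.0085 (SIX5), 0.0191 (EYA2), 0.13 (EYA3) and -0.31 (DACH1), the same as for centred height without the block.

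Signs of values that passed no test turned. Among gene medians in percentile points, SIX2 (0.0647) gave -1.67 with equal numbers of peaks, and SIX5 (2.74), EYA2 (-7.51) and DACH1 (3.49) gave -6.63, 3.7 and -5.7 with ranks of −log10 p. Without the centring, heights of SIX5, EYA2 and DACH1 gave -0.16, 0.40 and -0.12. Leaving out 1 library gave -4.84 to 2.3 for SIX2, -2.54 to 11.4 for SIX4 (-0.249 with all libraries), -4.16 to 6.79 for SIX5, -8.73 to 3.01 for EYA2, -2.32 to 3.59 for EYA3 (1.14) and -2.24 to 10.2 for DACH1. At single regions, the 5′ ends of SIX2 and SIX4 gave -0.67 and -1.52 with equal numbers of peaks, those of EYA2 and EYA3 gave 0.21 and 0.32 in height without the centring, that of EYA3 gave 0.82 with ranks of −log10 p, and the SIX4 region at MNAT1 gave 0.0051 in uncentred height. With 1 library left out, values ran from -1.12 to 2.37 (SIX2 5′ end), -2.93 to 3.64 (SIX4), -8.61 to 3.38 (EYA2), -2.0 to 0.498 (EYA3), -2.24 to 10.2 (DACH1), -0.0175 to 0.912 (SIX5 region at FBXO46) and -6.71 to 3.61 (EYA4 at 187.2 kb).

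Of the 5 regions past the threshold by rank, the EYA2 region with a −log10 q of at least 5, and it and the downstream EYA4 region with equal numbers of peaks, were not called in all libraries and gave no value.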
